A study of Mus musculus with 68 samples.

Results

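The alpha-defensins made by Paneth cells were represented by 9 rows of the deposited FPKM table of 23356 rows, chosen by name: Defa3, Defa5, Defa17, Defa20, Defa21, Defa22, Defa24, Defa26 and Gm21002. They were picked with their levels across the specimens known, so their values are given as a description and carry no test. FPKM divides the fragments of a gene by its length and by the size of the library. Another 23 alpha-defensin rows were in the same table. Of these, 9 were at 0 in every specimen and 12 reached 1 FPKM in at least 2 specimens, as all 9 chosen rows did.

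Paneth cells sit at the base of the small-intestinal crypts, beside the stem cells, and release antimicrobial peptides from granules into the crypt lumen. In mice their alpha-defensins, also called cryptdins, are made as inactive precursors that the metalloprotease matrilysin, encoded by Mmp7, cuts into active peptides. The set of alpha-defensin genes is known to differ between mouse strains. Normal colon is known to hold few or no Paneth cells, and mouse neutrophils are known to lack alpha-defensins. Wnt signalling through beta-catenin and Tcf7l2 is known to drive Paneth cell defensin genes and Mmp7.

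The series holds RNA-seq of 23 specimens of intestine, all from C57BL/6 mice labelled 3 months old, made to find what differs with loss of Cftr, the epithelial chloride and bicarbonate channel, in mice wildtype for Apc and in ApcMin mice, whose mutant Apc allele gives rise to intestinal tumours. Apc wildtype mice labelled Cftr knockout (KO) gave 2 duodenal tumours, 1 colon tumour, 2 specimens of normal duodenum and 2 of normal colon, against 2 specimens each of normal duodenum and normal colon from Apc wildtype, Cftr wildtype (WT) mice. ApcMin mice gave 2 ileum and 2 colon tumours labelled KO, 2 duodenal and 2 colon tumours labelled heterozygous for Cftr (het, which the labels also call a knockdown), and 2 ileum and 2 colon tumours with wildtype Cftr. For the Apc wildtype mice the protocol gives a floxed Cftr allele removed by Cre under the Villin promoter, which is active in intestinal epithelium, so other cells keep Cftr. For ApcMin mice, the sources used here name no Cftr allele. The specimen names carry W for normal colon and E for normal duodenum. The sources give whole tissue for 1 organ and epithelium for the other, so preparation goes with organ in the normal specimens. The 23 specimens carried 10 animal numbers, taken here as the leading number of each specimen name. The series' design text speaks of 23 mice. In the het names a further 1 or 2 stands before the organ letter, so these tumours may come from separate mice. The ApcMin KO tumours of both organs carried 1 animal number, and the ApcMin WT tumours of both organs carried another. The het duodenal and het colon tumours had 1 number each. Genotype therefore cannot be told apart from animal number in any comparison of ApcMin tumours.

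All 9 genes lie on chromosome 8 within chr8:21025545-21735471 of the GRCm38 annotation, a span of 709.9 kb, on the plus strand, each with 2 exons. In genome order they are Defa21 (chr8:21025545-21026517), Defa22 (chr8:21162277-21163249), Defa3 (chr8:21287409-21288377), Defa5 (chr8:21297394-21298375), Gm21002 (chr8:21391811-21392792), Defa20 (chr8:21509258-21510237), Defa26 (chr8:21618168-21618972), Defa17 (chr8:21655767-21656736) and Defa24 (chr8:21734494-21735471). RefSeq now names Gm21002 as Defa33. The coding sequences are so alike that fragments may be shared between rows. In the GENCODE M21 transcripts (GRCm38), Defa3 and Defa17 had identical coding sequences, Defa20 and Gm21002 were 99.65% identical, and Defa21 and Defa22 were 99.29% identical. Defa24 was 98.58% identical to Defa30, whose older name Gm15284 is another row of the table. Defa26 was the most distinct, at 92.91% to its nearest relative. A level of one row can therefore hold reads of its near copies, and the submitters' handling of such reads is not given in the sources used here.

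The last 120 bases of the coding sequence, which hold most or all of the mature peptide and the stop codon, are shown for 6 genes so that the likeness of the rows can be seen beside their values. Capitals mark bases unlike Defa24, or with no partner in it, when these last 120 bases were aligned with those of Defa24. The alignments of Defa22 and Gm21002 hold gaps, and bases of Defa24 that fall in a gap are not counted below. Defa3 has the same sequence as Defa17, and Defa20 the same last 120 bases as Gm21002.
Defa24: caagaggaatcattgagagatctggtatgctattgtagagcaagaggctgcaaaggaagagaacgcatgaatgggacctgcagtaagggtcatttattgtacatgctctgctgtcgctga
Defa17: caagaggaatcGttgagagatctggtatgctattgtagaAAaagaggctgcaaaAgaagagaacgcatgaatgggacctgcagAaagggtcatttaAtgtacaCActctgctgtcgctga
Defa26: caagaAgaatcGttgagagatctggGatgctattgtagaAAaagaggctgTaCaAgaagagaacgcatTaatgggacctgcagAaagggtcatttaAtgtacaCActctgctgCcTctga
Defa5: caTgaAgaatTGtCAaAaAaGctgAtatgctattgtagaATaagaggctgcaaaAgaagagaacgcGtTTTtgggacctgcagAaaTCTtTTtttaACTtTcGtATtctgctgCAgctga
Defa22: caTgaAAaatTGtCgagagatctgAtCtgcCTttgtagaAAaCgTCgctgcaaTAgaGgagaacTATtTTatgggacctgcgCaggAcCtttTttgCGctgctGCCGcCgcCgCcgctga
Gm21002: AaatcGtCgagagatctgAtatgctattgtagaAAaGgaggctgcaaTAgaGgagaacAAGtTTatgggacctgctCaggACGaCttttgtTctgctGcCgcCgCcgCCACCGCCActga
Of these 120 bases, 8 were in capitals in Defa17, 15 in Defa26, 32 in Defa5, 36 in Defa22 and 34 in Gm21002. The coding sequences of Defa20, Defa21, Defa22 and Gm21002 were 88.89% to 99.65% identical to one another, and 80.77% to 82.88% identical to that of Defa24.

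RefSeq (GRCm38.p6) gave promoter sequence for 3 of the 9 genes, shown because these 3 had nearly the same profile over the specimens. The 250 bases before the start of Defa20 (chr8:21509008-21509257, plus strand) and of Defa21 (chr8:21025295-21025544, plus strand) are printed with matches to ATCAAAG, the core site that Tcf proteins are known to bind, and to TATAAA in capitals. Defa22 (chr8:21162027-21162276, plus strand) had the same 250 bases as Defa21.
Defa20 promoter: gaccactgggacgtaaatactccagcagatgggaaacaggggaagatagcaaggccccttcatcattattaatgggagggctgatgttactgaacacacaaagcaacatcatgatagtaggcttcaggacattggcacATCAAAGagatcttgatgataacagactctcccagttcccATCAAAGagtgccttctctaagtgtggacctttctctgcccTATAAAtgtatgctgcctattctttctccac
Defa21 promoter: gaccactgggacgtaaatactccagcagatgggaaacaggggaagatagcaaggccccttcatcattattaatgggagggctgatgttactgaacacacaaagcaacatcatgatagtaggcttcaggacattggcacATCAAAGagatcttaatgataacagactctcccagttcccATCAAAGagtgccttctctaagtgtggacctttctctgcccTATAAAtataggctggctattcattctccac
These promoters differed at 5 of 250 positions. Each held 2 matches to ATCAAAG, searched on both strands, and 1 to TATAAA, searched on the plus strand. The motifs did not overlap. Among 32851 promoters of the same length, 3.21% held ATCAAAG and 0.0822% held it at least 2 times, while 7.59% held TATAAA. Of 16 alpha-defensin promoters with sequence, 13 held ATCAAAG, 9 held it at least 2 times and 15 held TATAAA. A match is a description of the letters and not a measured binding site.

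There were 2 sequencing runs: 11 specimens had libraries in each, 12 had them in 1, and the columns of a specimen were averaged. The relative depth of the 68 columns, read from the steps between low values, spanned 1.84-fold. Between the 2 WT duodenum specimens the differences stayed under the sampling noise, with a spread between them of 0.924 times that expected from lanes in run 1 and 0.984 times in run 2, against 2.05 to 6.23 times in the other groups. They were counted as 1 sample in every test, although their names carry separate animal numbers, and both values are printed. Markers fitted the labelled tissues. The 13 enterocyte markers of the small intestine summed to 30626 to 34143 FPKM in normal duodenum, against 471 to 1698 FPKM in normal colon, and the 7 colonocyte markers to 417 to 552 FPKM in duodenum, against 3508 to 6657 FPKM in colon. The run 1 library of WT colon 2 carried duodenal transcripts, including the alpha-defensins, and colon results are given with and without it. The run 1 library of the Apc wildtype KO colon tumour also had more enterocyte marker RNA than its run 2 library, at 551 against 96.6 FPKM. Where nothing says that replicates came from separate animals, the spread between them may be technical. In these bulk samples, fewer Paneth cells and less defensin RNA per Paneth cell cannot be told apart.

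Defa24 was the most abundant of the 9 in all 23 specimens and the highest of all rows in 9 of them. It stood at 12183 and 10883 FPKM in KO duodenum and at 22397 and 21662 FPKM in the 2 WT duodenum specimens. The het duodenal tumours lay far apart, at 10009 and 30719 FPKM. Below these came the ApcMin ileum tumours, with 12158 and 9035 FPKM in KO and 5848 and 8951 FPKM in WT tumours, and then the KO duodenal tumours of Apc wildtype mice at 7532 and 2693 FPKM. Colon tumours held far less, at 679 and 230.3 FPKM in ApcMin KO tumours, 1442 and 748 FPKM in het tumours, 1797 and 118 FPKM in ApcMin WT tumours and 346 FPKM in the single KO colon tumour of an Apc wildtype mouse. Normal colon was near the bottom, at 5.80 and 5.24 FPKM in KO colon and 7.42 FPKM in WT colon 1. By group mean, the order from the top was WT duodenum, het duodenal tumours, KO duodenum, ApcMin KO ileum tumours, ApcMin WT ileum tumours, KO duodenal tumours, het, ApcMin WT and ApcMin KO colon tumours, the Apc wildtype KO colon tumour, WT colon and KO colon. In that order the values did not overlap between ApcMin KO and WT ileum tumours, between KO duodenal and het colon tumours, or between WT and KO colon, and every other pair of neighbours overlapped.

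The other 8 genes were present at a small share of Defa24. Defa24 made up 51.2% to 90.9% of the summed level of the 9 in the 20 specimens where it reached 100 FPKM, WT colon 2 among them, with a median of 84.3%. The lowest share was in het colon tumour 2 and the highest in ApcMin WT colon tumour 2. Defa3 reached at most 52.9 FPKM, in het duodenal tumour 2. The whole alpha-defensin family, 32 rows, took up to 8.86% of the summed FPKM of a specimen, in het duodenal tumour 2, and the 9 genes were 44.4% to 84.9% of the family in those 20 specimens.

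**Figure D1:**
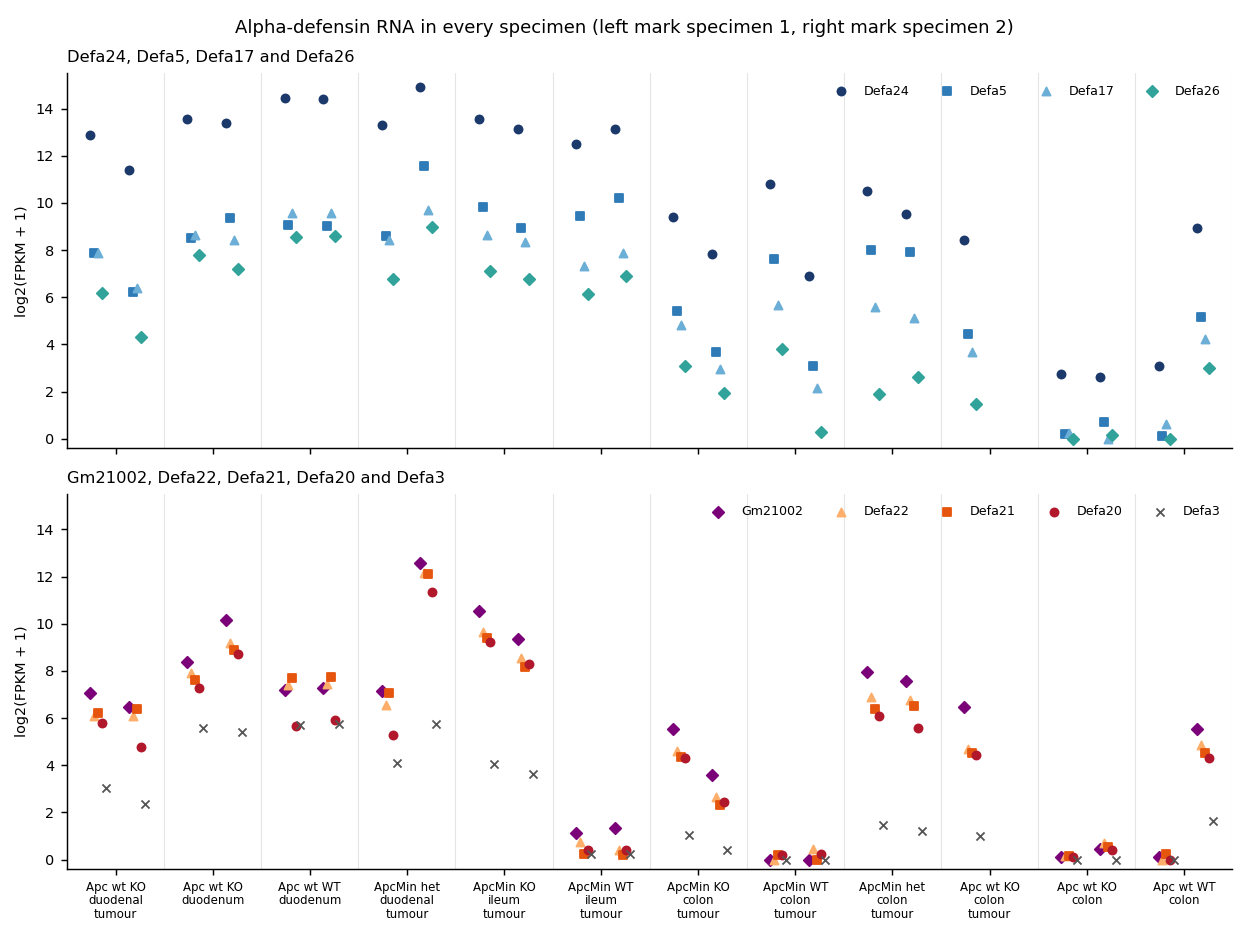
RNA level of the 9 alpha-defensins in all 23 specimens, as log2(FPKM + 1), with 1 mark per gene and specimen and no averaging over specimens. The upper panel holds Defa24, Defa5, Defa17 and Defa26 and the lower one Gm21002, Defa22, Defa21, Defa20 and Defa3. The ApcMin WT ileum and colon tumours keep the upper genes, with Defa24 at 118 to 8951 FPKM, while all 5 lower genes sit at or below 1.54 FPKM.

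The genes fell into 2 patterns over the specimens. Defa5, Defa17, Defa24 and Defa26 varied together, with Pearson r between pairs of 0.892 to 0.99 over 22 samples. Defa20, Defa21, Defa22 and Gm21002 did so more tightly, at 0.986 to 0.997. Between the 2 sets r was 0.644 to 0.724, and Defa3 lay between them at 0.647 to 0.895. These values describe samples that share animals and runs, and the pairs share reads where copies are alike. Defa3 and Defa17, with the same coding sequence, had an r of 0.789, and Defa20 and Defa22, which are 89.93% identical, had 0.993. The part of coding identity and of shared reads in the 2 patterns was not tested.

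Defa17 kept the steadiest proportion to Defa24. It was 2.59% to 4.51% of Defa24 in the 20 specimens, a 1.74-fold range, although Defa24 itself ran over a far wider span. Defa26 was 0.174% to 1.82% of Defa24. Defa5 ranged from 2.37% of Defa24 in WT duodenum 2 to 31.8% in het colon tumour 2, a 13.4-fold range. Gm21002 ranged from 0 in both ApcMin WT colon tumours to 25.5% in the Apc wildtype KO colon tumour.

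The largest contrast among the 9 lay in the animal that gave all 4 ApcMin WT tumours. Gm21002 was at 1.17 and 1.54 FPKM in its ileum tumours and listed at 0 in its colon tumours. Defa20 was at 0.333 and 0.308 FPKM in the ileum tumours and at 0.135 and 0.168 FPKM in the colon tumours. Defa21 and Defa22 reached at most 0.174 and 0.692 FPKM in these 4 specimens, and Defa3 at most 0.181 FPKM. In the same tumours Defa24 was at 118 to 8951 FPKM and Defa5 at 7.60 to 1172 FPKM. The summed level of Defa20, Defa21, Defa22 and Gm21002 was 0.0133% to 0.401% of that of Defa5, Defa17, Defa24 and Defa26 in these 4 specimens, against 2.39% to 50.3% in the other 16 with Defa24 at 100 FPKM or more. The gap was there in both organs of this animal, where Lyz1 was at 663 to 4251 FPKM. Whether it goes with the animal or with its Apc and Cftr genotype cannot be told apart.

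The same proportion also varied among the other specimens. It was 4.04% and 9.17% in KO duodenal tumours and 6.997% and 21.6% in KO duodenum, all above the 2.39% and 2.58% of the 2 WT duodenum specimens. The 2 het duodenal tumours, which carry the same animal number, had 3.72% and 50.3%. In het tumour 2 Gm21002 was at 6049 FPKM, Defa22 at 4583 FPKM and Defa21 at 4432 FPKM, the highest values of these genes in the series, against 139, 92.4 and 134 FPKM in het tumour 1. The het colon tumours had 29.4% and 42.4%, the ApcMin KO ileum tumours 26.3% and 16.3%, and the ApcMin KO colon tumours 14.2% and 9.87%. Values from 1 animal number could thus lie far apart, as in the het duodenal tumours.

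**Figure D2:**
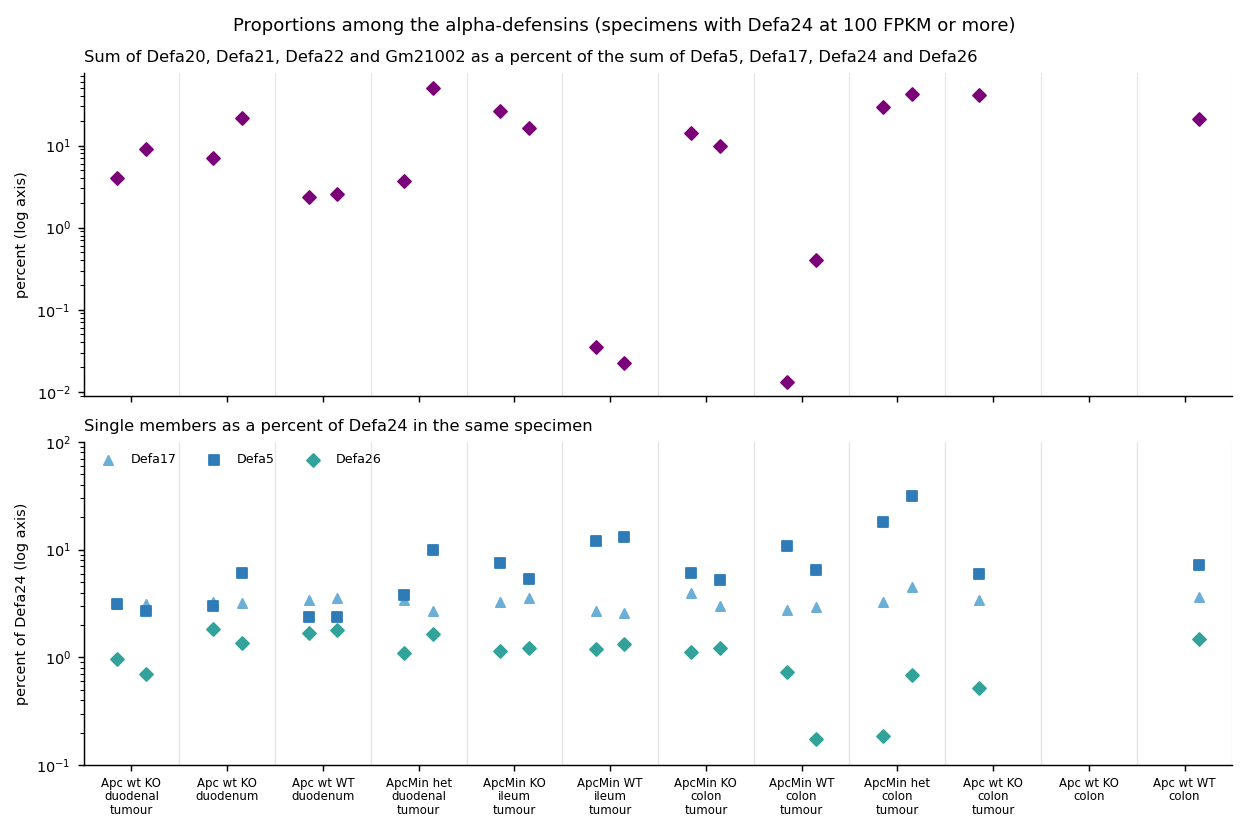
Proportions among the alpha-defensins in the 20 specimens with Defa24 at 100 FPKM or more, each mark 1 specimen, on log axes. The upper panel gives the summed Defa20, Defa21, Defa22 and Gm21002 as a percent of the summed Defa5, Defa17, Defa24 and Defa26, which is 0.401% or less in the 4 ApcMin WT tumours and 2.39% or more in the rest. The lower panel gives Defa5, Defa17 and Defa26 as a percent of Defa24, with Defa17 staying between 2.59% and 4.51%.

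In normal duodenum the 9 genes did not move one way between KO and WT mice. Differences are given as KO minus WT on the log2(FPKM + 1) scale, which understates those of low genes. Defa24 was at 12183 and 10883 FPKM in KO duodenum, against 22397 and 21662 FPKM in WT duodenum, a difference of -0.94. Defa17 was at 398 and 345 FPKM in KO duodenum, against 760.4 and 763 FPKM in WT duodenum (-1.04). Defa26 was at 221 and 148 FPKM, against 380.4 and 385 FPKM (-1.08). For these genes the groups did not overlap, and all 3 were lower in KO duodenum.

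The second set lay the other way. Gm21002 was at 334 and 1128 FPKM in KO duodenum, against 147 and 154 FPKM in WT duodenum, a difference of 2.02. Defa20 was at 156 and 416 FPKM in KO duodenum, against 49.2 and 60.1 FPKM in WT duodenum (2.20). KO duodenum 2 was the higher of the KO pair for all 4 genes of that set. Defa22 differed by 1.11, and Defa21, whose groups overlapped, by 0.51.

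Over the 9 genes the median difference in duodenum was -0.09, against 0.01 over all 14098 genes tested, with 3 genes higher in KO duodenum and 4 lower without overlap. Of all genes tested, 28.4% were higher and 25.0% lower without overlap in this comparison, so such a count is not particular to the 9. The median was -0.16 without KO duodenum 2 and 0.34 without KO duodenum 1. KO duodenum 1 also carried pancreatic acinar RNA: 8 of 8 markers summed to 1312 FPKM there, against 2.67 FPKM in KO duodenum 2 and 6.31 and 4.06 FPKM in WT duodenum. Their part in the result was not tested.

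Other Paneth cell genes were set beside the defensins in a list of 13 non-defensin genes, of which 11 were tested, since Ang5 and Ang6 did not reach the level for testing. By limma, with Benjamini-Hochberg adjustment over all 14098 genes, 0 of the 11 and 0 of 17 regulators of Paneth cells passed an adjusted p of 0.05 in KO against WT duodenum, where 0% of all genes passed. At an unadjusted p of 0.05, 0 of the 11, 0 of the 17 and 368 of all genes passed. Lyz1, which encodes the lysozyme of Paneth cell granules, was at 2311 and 2981 FPKM in KO duodenum, against 4314 and 4273 FPKM in WT duodenum (log2 difference -0.71, SE 1.09, adjusted p = 1.0). Itln1, an intelectin, was at 1066 and 1163 FPKM in KO duodenum, against 1902 and 1870.0 FPKM in WT duodenum (-0.76, SE 1.13, adjusted p = 1.0). The phospholipase Pla2g2a was at 20.8 and 25.1 FPKM, against 30.4 and 31.8 FPKM. Among regulators the smallest p was that of Tcf7l2, at 12.8 and 11.9 FPKM in KO duodenum and 8.93 and 9.62 FPKM in WT duodenum (adjusted p = 1.0 by limma).

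In duodenal tumours of Apc wildtype KO mice all 9 alpha-defensins were lower than in normal duodenum of such mice, each without overlap, with a median log2 difference of -2.25 against -0.01 over all genes. Of all genes tested, 30.0% were lower without overlap. KO duodenum also stands in the comparison with WT duodenum, so the 2 comparisons share those specimens. Defa24 was at 7532 and 2693 FPKM in the tumours, against 12183 and 10883 FPKM in KO duodenum (-1.35). Defa3 was at 7.16 and 4.14 FPKM in the tumours, against 46.3 and 41.5 FPKM in KO duodenum (-2.79). Defa20 was at 54.7 and 26.5 FPKM, against 156 and 416 FPKM (-2.71). Defa17, at 237 and 83.5 FPKM in the tumours against 398 and 345 FPKM in KO duodenum, was among the least changed (-1.39).

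Tumour 2 was lower than tumour 1 for 7 of the 9 genes, and Defa21 and Defa22 stood at near equal levels in both, with 72.6 and 81.6 FPKM for Defa21 and 67.0 and 67.5 FPKM for Defa22. Without KO duodenum 2 the median difference was -1.63, and without tumour 1 it was -2.73. The 2 tumours came from other animals than the normal specimens. The 13 enterocyte markers summed to 27781 and 21365 FPKM in the tumours, against 33845 and 30626 FPKM in KO duodenum, and the 3 Brunner gland markers to 150.2 and 51.3 FPKM, against 12.2 and 1.66 FPKM. Their part in the result was not tested.

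The non-defensin Paneth genes did not all lie with the defensins there. By limma 0 of the 11 passed the adjusted threshold and 1 passed at an unadjusted p of 0.05, where 8.16% of all genes passed after adjustment. At that unadjusted p, 3265 of all 14098 genes passed. Lyz1 was at 1711 and 881 FPKM in the tumours, against 2311 and 2981 FPKM in KO duodenum. Mptx2, a pentraxin of Paneth cells, was at 269 and 18.7 FPKM, against 372 and 660.0 FPKM (log2 difference -2.77, SE 1.41, adjusted p = 0.268). Mmp7, the processing protease, was at 115 and 71.6 FPKM in the tumours, against 75.2 and 122 FPKM, and the groups overlapped. Pla2g2a was at 79.6 and 30.0 FPKM in the tumours, against 20.8 and 25.1 FPKM (1.07, SE 0.41, adjusted p = 0.133). Of the 17 regulators 2 rose. Ctnnb1, which encodes beta-catenin, was at 473 ± 41.2 FPKM in the tumours, against 314 ± 20.9 FPKM in KO duodenum (SD, n = 2 each; 0.59, SE 0.14, adjusted p = 0.0198 by limma). Kcnn4, a potassium channel known from Paneth cells, was at 57.3 ± 8.48 FPKM, against 29.8 ± 2.66 FPKM (0.92, SE 0.24, adjusted p = 0.0357 by limma). Ctnnb1 passed in 8 of 12 alternative settings and Kcnn4 in 6 of 12, with adjusted p of 0.0109 to 0.147 for Ctnnb1 and 0.00910 to 0.220 for Kcnn4. Leaving out KO duodenum 1, KO duodenum 2 or tumour 2 ended both calls, and leaving out tumour 1 also ended that of Kcnn4.

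Duodenal tumours of Apc wildtype KO mice were then set against het duodenal tumours of ApcMin mice within run 1, the only run that holds both. All 9 differences were negative, with a median of -2.89 against -0.01 over 13941 genes tested. Without overlap 8 of the 9 were lower, and 20.5% of all genes were. Defa24 was at 7854 and 2838 FPKM in the KO tumours, against 10009 and 30719 FPKM in het tumours (-1.89). Gm21002 was at 137 and 85.7 FPKM, against 139 and 6049 FPKM (-3.07). Defa20 overlapped, at 52.2 and 29.6 FPKM in the KO tumours against 37.5 and 2576 FPKM in het tumours. Het tumour 2 was above het tumour 1 for all 9 genes. The 8 goblet cell markers summed to 13152 and 15083 FPKM in the KO tumours in run 1, against 12207 and 21471 FPKM in het tumours. The part of that tumour's makeup in the result was not tested, and Apc and Cftr genotype cannot be told apart here.

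Among the non-defensin Paneth genes Pla2g2a, which is known as a modifier of ApcMin tumour number, fell in this comparison. It was at 57.2 ± 35.1 FPKM in the KO tumours, against 244 ± 70.6 FPKM in het tumours (SD, n = 2 each; log2 difference -2.19, SE 0.39, adjusted p = 0.0433 by limma), where 1.31% of all genes passed. It passed in 4 of 10 alternative settings, with adjusted p from 0.00379 to 0.679, and leaving out KO tumour 2 or het tumour 2 ended the call. The secreted phospholipase Pla2g2f was at 7.27 ± 0.914 FPKM, against 21.9 ± 7.27 FPKM (-1.44, adjusted p = 0.0574 by limma). Both het tumours carried 1 animal number and were counted as separate samples, so their SD may hold no spread between animals. None of the 17 regulators passed by limma. At an unadjusted p of 0.05, 1 of them and 2617 of all 13941 genes did.

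**Figure D3:**
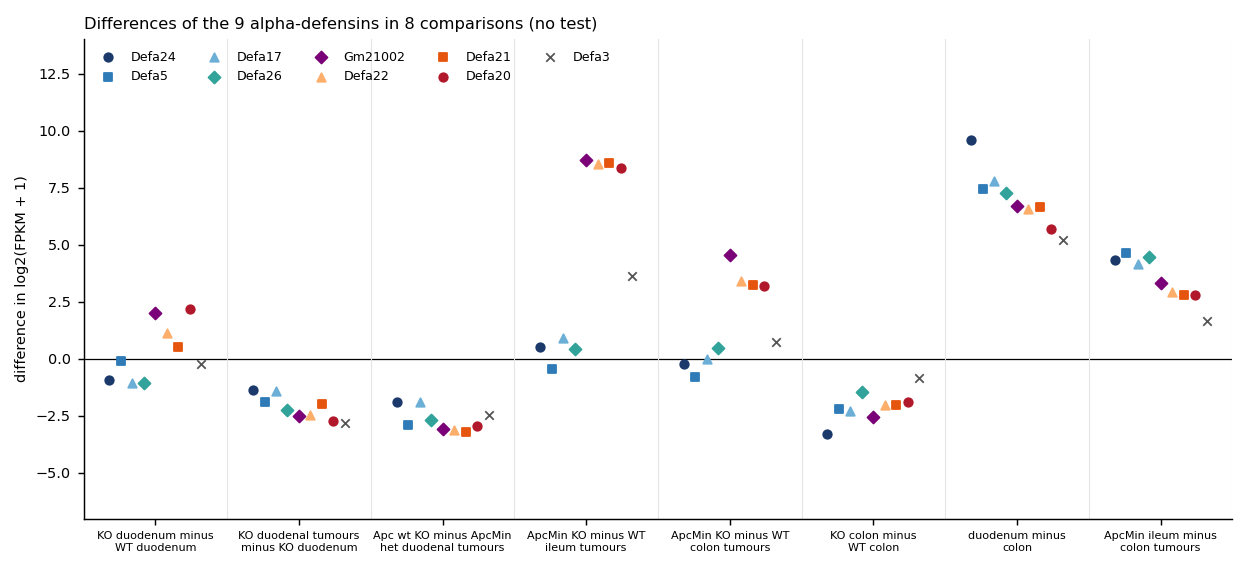
Difference in log2(FPKM + 1) for each of the 9 alpha-defensins in 8 comparisons, the first-named group minus the second, without a test. In KO against WT duodenum the genes lie on both sides of 0, from -1.08 for Defa26 to 2.20 for Defa20, and in KO duodenal tumours against KO duodenum all 9 lie below it. The colon comparison rests on 1 library.

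In ApcMin ileum tumours Defa24 was at 12158 and 9035 FPKM in KO tumours, against 5848 and 8951 FPKM in WT tumours, groups that barely separated (log2 difference 0.53). Defa17 was at 401 and 320.0 FPKM, against 158 and 232 FPKM (0.90). Defa5 and Defa26 overlapped, with Defa5 at 909.8 and 483 FPKM in KO tumours and 702 and 1172 FPKM in WT tumours. The 5 genes that were near 0 in the WT animal made up the rest of the difference. Gm21002 was at 1505 and 643 FPKM in KO tumours, against 1.17 and 1.54 FPKM in WT tumours (8.71). Defa22 was at 797 and 378 FPKM, against 0.692 and 0.320 FPKM (8.52). Defa3 was at 15.7 and 11.4 FPKM, against 0.181 and 0.166 FPKM (3.62).

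The median over the 9 was 3.62 in ileum tumours, against 0.01 over all genes, with 7 higher without overlap, and 19.6% of all genes were. Each genotype was 1 animal number. None of the 11 other Paneth genes passed by limma (1 at an unadjusted p of 0.05), nor did any of the 17 regulators (1 at an unadjusted p of 0.05), where 0.121% of all genes passed. At that unadjusted p, 825 of all 14098 genes passed. Lyz1 was at 3208 and 1319 FPKM in KO tumours, against 3162 and 3755 FPKM in WT tumours, and Mmp7 at 764 and 433 FPKM, against 645 and 590 FPKM. Ang4, an antimicrobial angiogenin of Paneth cells, was at 2296 and 2272 FPKM in KO tumours, against 218 and 271 FPKM in WT tumours (3.22, SE 1.31, adjusted p = 0.726 by limma, with the spread shared over all groups). Paneth markers, 8 of 8, summed to 8998 and 6334 FPKM in KO tumours, against 5603 and 6628 FPKM in WT tumours. This sum does not follow Paneth cells in every tissue: it reached 5793 FPKM in KO colon and 13332 FPKM in WT colon, most of it Mptx1.

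In ApcMin colon tumours the same genes were near 0 in the WT animal. Gm21002 was at 45.3 and 11.0 FPKM in KO tumours and listed at 0 in both WT tumours. Defa20 was at 19.0 and 4.50 FPKM in KO tumours, against 0.135 and 0.168 FPKM in WT tumours (log2 difference 3.19). The other 4 followed no common direction and overlapped. Defa24 was at 679 and 230.3 FPKM in KO tumours, against 1797 and 118 FPKM in WT tumours (-0.22), and Defa5 at 41.6 and 12.0 FPKM, against 195 and 7.60 FPKM (-0.81).

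The median over the 9 in colon tumours was 0.72, against 0.00 over all genes, with 5 higher without overlap, and 17.0% of all genes were. That median was the value of Defa3, a gene near the floor here. Defa3 was at 1.03 and 0.336 FPKM in KO tumours and listed at 0 in both WT tumours. Without WT tumour 1 the median was 2.25. The 8 Paneth markers summed to 1393 and 1003 FPKM in KO tumours, against 7028 and 2016 FPKM in WT tumours. The 7 colonocyte markers summed to 783 and 2947 FPKM in KO tumours, against 252 and 3099 FPKM in WT tumours, so in each pair the tumour with less Defa24 had more of them. The 6 smooth muscle markers summed to 592 and 226 FPKM in KO tumours, against 116 and 961 FPKM in WT tumours. Their part in the result was not tested. Of the 11 other Paneth genes 0 passed by limma and 6 did at an unadjusted p of 0.05, where 0.0638% of all genes passed after adjustment. At that unadjusted p, 1708 of all 14098 genes passed. The smallest p was that of Mptx1, at 350.1 and 18.2 FPKM in KO tumours, against 2.83 and 2.94 FPKM in WT tumours (4.403, SE 1.20, adjusted p = 0.214 by limma). Pla2g2a was at 81.5 and 109 FPKM, against 373 and 173 FPKM (-1.42, SE 0.41, adjusted p = 0.226 by limma). Lyz1 was at 284 and 215 FPKM in KO tumours, against 4251 and 663 FPKM in WT tumours (-2.76, SE 0.89, adjusted p = 0.276 by limma). Mmp7 was at 159 and 179 FPKM, against 1370.4 and 359.5 FPKM (-2.05, SE 0.68, adjusted p = 0.284 by limma). Leaving out WT tumour 2 leaves WT tumour 1 alone in its group. The log2 difference was then -4.10 for Lyz1, -3.02 for Mmp7, -1.97 for Pla2g2a and -2.88 for Itln1. Mptx1 lay the other way in the full comparison. The neutrophil markers, 6 of 7 of them in the table, summed to 167 and 59.3 FPKM in KO tumours, against 750.4 and 115 FPKM in WT tumours, and mouse neutrophils make no alpha-defensins as far as is known.

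The het colon tumours, read in run 1 only, held both sets of genes. Defa5 was at 259 and 238 FPKM, Gm21002 at 249 and 187 FPKM and Defa22 at 117 and 109 FPKM, so 2 tumours of this animal number lay close together. Defa26 was low there, at 2.68 and 5.10 FPKM. The Apc wildtype KO colon tumour, a single specimen without a replicate, had Gm21002 at 88.5 FPKM, Defa22 at 24.6 FPKM and Defa5 at 20.5 FPKM. Its run 1 library read higher than its run 2 library for all 9 genes. Defa24 was at 429 FPKM in run 1 and 264 FPKM in run 2, and Gm21002 at 92.9 and 84.0 FPKM. The enterocyte markers summed to 551 FPKM in run 1 and 96.6 FPKM in run 2, AY761184 was at 11.3 and 0.624 FPKM and Mptx2 at 7.52 and 1.59 FPKM. Their part in the run 1 levels was not tested.

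In normal colon the alpha-defensins were near 0 except in 1 library. Defa24 was at 5.80 and 5.24 FPKM in KO colon, against 7.42 FPKM in WT colon 1 and 484 FPKM in WT colon 2. The WT colon 2 value was the mean of 959 FPKM in run 1 and 8.73 FPKM in run 2. Gm21002 was at 90.7 FPKM in that run 1 library and 0.336 FPKM in the run 2 library of the same specimen, and Defa5 at 69.8 and 0.347 FPKM. The other 8 genes were at 0.645 FPKM or less in every other colon specimen.

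With that library the median difference of KO minus WT colon was -2.04, with 2 genes lower without overlap, where 22.8% of all genes were. Without it the median was 0.08. By limma 0 of the 11 other Paneth genes and 0 of the 17 regulators passed in colon, and 2 and 1 did at an unadjusted p of 0.05. Lyz1 showed the same library, at 274 FPKM in run 1 and 19.9 FPKM in run 2 of WT colon 2, against 10.1 and 11.2 FPKM in KO colon and 19.9 FPKM in WT colon 1. No gene passed in this comparison over all 14098, and 948 did at an unadjusted p of 0.05.

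The proportions among the 9 genes in that library matched 1 duodenal specimen. Set against the run 1 library of KO duodenum 2, the 9 genes stood at 8.16% to 9.72% of its levels, a 1.19-fold range with a median of 8.84%. Set against KO duodenum 1 they stood at 6.67% to 27.5%, a 4.13-fold range. Set against the duodenum of WT mice they stood at 3.65% to 68.7% for WT duodenum 1, an 18.9-fold range, and at 3.67% to 63.5% for WT duodenum 2, which carries the same animal number as WT colon 2. Defa20 and Gm21002, which are low in WT duodenum, set the upper end of those ranges.

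**Figure D4:**
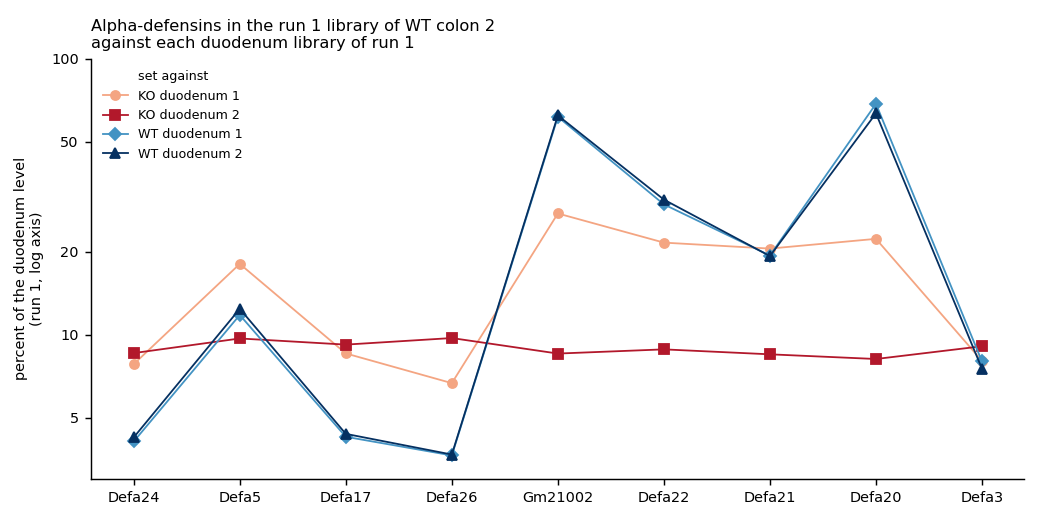
Level of each of the 9 alpha-defensins in the run 1 library of WT colon 2 as a percent of its level in the run 1 library of each of the 4 duodenum specimens, on a log axis, with 1 line per duodenum specimen. The line against KO duodenum 2 is nearly flat at 8.16% to 9.72%, and those against WT duodenum span 3.65% to 68.7%.

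Normal duodenum held far more of all 9 genes than normal colon of the same mice, without overlap, with a median log2 difference of 6.70, against 0.02 over all genes. Of all genes tested, 32.7% were higher without overlap. Organ and preparation, whole tissue or epithelium, cannot be told apart in this comparison, for the 9 genes or for the other Paneth genes and regulators below. The 6 smooth muscle markers summed to 790 to 856 FPKM in normal duodenum, against 2354 to 2961 FPKM in normal colon. The lowest Defa24 value in duodenum was 10883 FPKM, against 484 FPKM or less in colon. The log2 difference of Defa24, averaged over KO and WT mice, was 9.61. Leaving out the run 1 library of WT colon 2 moved the median to 7.98 and that of Defa24 to 11.02. Markers of Paneth cells did not all follow the defensins. Of the 11 tested, 6 rose and 4 fell in duodenum by limma, where 55.6% of all genes passed.

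Those that rose were Mptx2 (7.35), Lyz1 (7.05), Itln1 (6.72), Mmp7 (5.29), the serine protease Habp2 (2.43) and Pla2g2a (1.92), with adjusted p from 3.99e-06 to 0.00276. Mmp7, which cuts the defensin precursors, was at 75.2 and 122 FPKM in KO duodenum and 113 and 120 FPKM in WT duodenum, against 1.85 and 0.665 FPKM in KO colon and 0.721 and 5.71 FPKM in WT colon. Those that fell were the pentraxin Mptx1 (-6.87), the stress-response gene Nupr1 (-2.95), Pla2g2f (-2.30) and Cd24a (-1.12), with adjusted p from 5.29e-05 to 0.000703. Mptx1 was at 38.1 and 52.4 FPKM in KO duodenum and 33.2 and 36.6 FPKM in WT duodenum, against 2032 and 4997 FPKM in KO colon and 11553 and 4354 FPKM in WT colon, so all 4 colon values were above all 4 duodenum values. Ang4 did not pass and overlapped, at 1421 and 468 FPKM in KO duodenum and 570 and 601 FPKM in WT duodenum, against 765 and 558 FPKM in KO colon and 1556 and 149 FPKM in WT colon.

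Of the 17 regulators 3 rose and 9 fell in duodenum against colon, where 55.6% of all genes passed, so such a count is not particular to regulators. Atoh1, the factor that sets secretory lineage fate, was at 8.02 and 9.39 FPKM in KO duodenum and 6.97 and 6.89 FPKM in WT duodenum, against 44.2 and 50.4 FPKM in KO colon and 47.6 and 32.8 FPKM in WT colon (log2 difference -2.33, SE 0.24, adjusted p = 4.83e-06 by limma). Spdef, a goblet and Paneth cell factor, fell by 1.71 (adjusted p = 0.00234 by limma). Sox9, which Paneth cells need to form, fell by 1.02 (adjusted p = 0.00505 by limma), and Tcf7l2 fell by 0.51 (adjusted p = 0.0176 by limma). The others that fell were Gfi1, Ern1, Ephb2, Ephb3 and Nod2. The autophagy genes Atg16l1 (0.31) and Atg5 (0.25) and the secretory cell factor Bhlha15 (0.58) rose. Of 17 alternative settings Atg16l1 passed in 12, Atg5 in 10, Bhlha15 in 6, Ephb2 in 13 and Tcf7l2 in 16, with adjusted p up to 0.185 for Atg5. Each of these calls ended without KO colon 1, except that of Tcf7l2, which ended without KO colon 2. Those of Atg5 and Bhlha15 also ended without KO colon 2, WT colon 2 or either KO duodenum specimen, that of Atg16l1 without KO duodenum 2 or WT colon 2, and that of Ephb2 without KO duodenum 1 or WT colon 1. That of Atg5 further ended without WT colon 1, and that of Bhlha15 without WT duodenum 1. Without the run 1 library of WT colon 2 Nod2 no longer passed (adjusted p = 0.0572 by limma). It passed in 6 of 17 alternative settings, with adjusted p from 0.0185 to 0.365, and leaving out either KO duodenum, WT duodenum 2 or any 1 colon specimen ended its call.

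**Figure D5:**
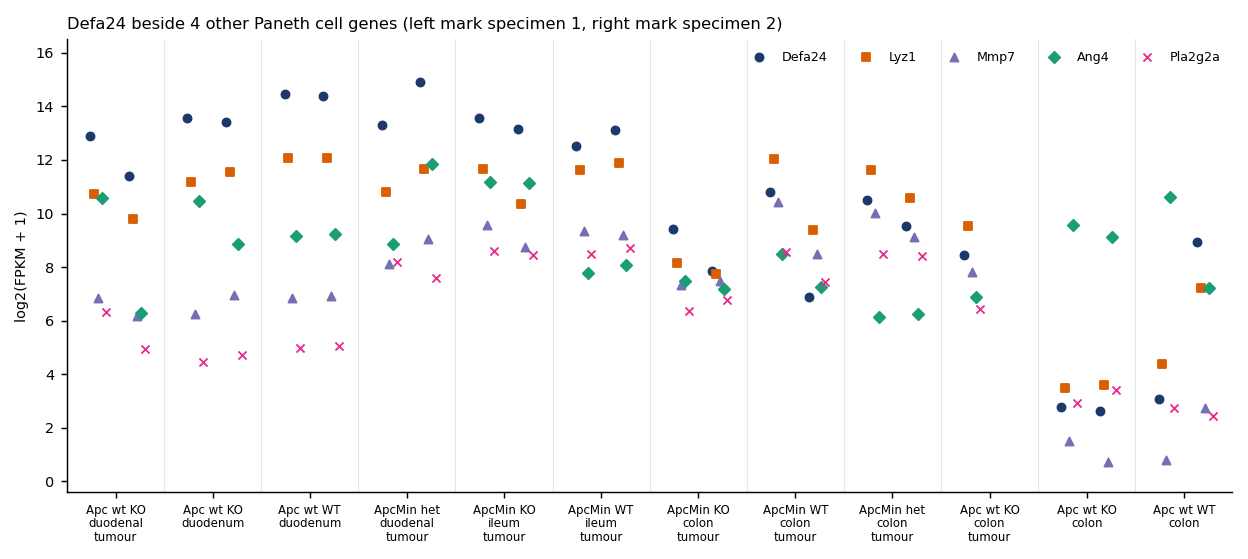
Level of Defa24 and of 4 other Paneth cell genes in every specimen, as log2(FPKM + 1), with 1 mark per gene and specimen. Lyz1 stands above Defa24 in the ApcMin WT and het colon tumours, at 663 to 4251 FPKM, and Ang4 is high in normal colon, at 149 to 1556 FPKM, where Defa24 is at 5.24 to 7.42 FPKM outside WT colon 2.

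ApcMin ileum tumours exceeded ApcMin colon tumours in all 9 genes by mean, with a median of 3.31, against 0.01 over all genes. Without overlap 4 of the 9 were higher, Defa5, Defa17, Defa24 and Defa26, and 12.6% of all genes were. The other 5 overlapped because they were near 0 in the WT tumours of both organs. Defa26 was at 139 and 110.0 FPKM in KO and 70.5 and 120.2 FPKM in WT ileum tumours, against 7.56 and 2.83 FPKM in KO and 13.1 and 0.205 FPKM in WT colon tumours, a log2 difference of 4.47.

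Of the 11 other Paneth genes 5 rose in ileum against colon tumours, where 24.1% of all genes passed: Mptx2 (5.89), Itln1 (3.39), Habp2 (2.37), Lyz1 (2.05) and Pla2g2a (1.27), with adjusted p from 0.000946 to 0.0321 by limma. Nupr1 fell by 1.97 (adjusted p = 0.00156 by limma). Each Cftr genotype carried 1 animal number for both organs, and limma counted its tumours as separate samples. The p-values of this comparison therefore do not rest on replicate animals within a genotype. Mmp7 did not pass, at 764 and 433 FPKM in KO and 645 and 590 FPKM in WT ileum tumours, against 159 and 179 FPKM in KO and 1370.4 and 359.5 FPKM in WT colon tumours. Of the 17 regulators 4 fell, near the 24.1% of all genes that passed: Nod2, Atoh1, Ern1 and Ephb2, by 0.60, 0.84, 0.47 and 0.41. Nod2 passed in 15 of 15 alternative settings, Atoh1 in 14, Ern1 in 10 and Ephb2 in 8, with adjusted p up to 0.104 for Ern1 and 0.111 for Ephb2. Leaving out WT ileum tumour 2, KO ileum tumour 2 or WT colon tumour 1 ended the calls of both Ern1 and Ephb2. That of Ern1 also ended without KO colon tumour 1, and that of Ephb2 without WT ileum tumour 1, KO ileum tumour 1, WT colon tumour 2 or KO colon tumour 2. The call for Lyz1 ended in 8 of 15 alternative settings, with adjusted p from 0.00457 to 0.113, among them those without KO ileum tumour 1, either WT ileum tumour, either KO colon tumour or WT colon tumour 2.

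Relative to Defa24, ApcMin WT, het and KO colon tumours all held more Lyz1 and Mmp7 than normal duodenum did. The ApcMin ileum tumours, KO and WT, also held more Mmp7 relative to Defa24 than normal duodenum did. In the ApcMin WT colon tumours Lyz1 was at 4251 and 663 FPKM beside Defa24 at 1797 and 118 FPKM, whereas in WT duodenum Lyz1 was at 4314 and 4273 FPKM beside 22397 and 21662 FPKM. Mmp7 was at 1041 and 550.2 FPKM in het colon tumours beside Defa24 at 1442 and 748 FPKM. Mmp7 in normal duodenum was at 122 FPKM or less. This is a description of levels per length, and the ratio was not tested.

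Among the other alpha-defensin rows Gm15284, AY761184, Gm14851, Defa4 and Gm10104 were abundant. Gm15284, whose coding sequence is nearest to Defa24, was at 5082 and 4242 FPKM in KO duodenum, against 6880 and 7105 FPKM in WT duodenum. Defa4 was at 61.1 and 11.7 FPKM in KO duodenum, against 790.5 and 570.1 FPKM in WT duodenum, and Gm10104 at 15.4 and 7.39 FPKM, against 427 and 414 FPKM. Duodenal tumour 2 of the KO mice was like the KO duodenum in this, with Defa4 listed at 0 in its run 1 library and Gm10104 at 1.18 FPKM, while tumour 1 had 695 and 459 FPKM. In ApcMin ileum tumours Defa4 was at 3248 and 1998 FPKM in KO tumours, against 4236 and 7963 FPKM in WT tumours, the highest value of any specimen.

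Gm14851 was low in the ApcMin WT tumours, as Gm21002 was, but the rows differed elsewhere. It was at 417 and 386 FPKM in ApcMin KO ileum tumours, against 11.6 and 21.1 FPKM in ApcMin WT ileum tumours. In het colon tumours it was at 0.892 and 4.61 FPKM, where Gm21002 was at 249 and 187 FPKM. In duodenum it was at 1922 and 1780 FPKM in KO and 3780 and 3856 FPKM in WT specimens. AY761184 was at 274 and 269 FPKM in KO ileum tumours, against 59.0 and 181 FPKM in WT ileum tumours. The rows low in 1 set of specimens thus differed. Defa4 and Gm10104 were low in KO duodenum and KO duodenal tumour 2, and Defa3, Defa20, Defa21, Defa22 and Gm21002 in the ApcMin WT tumours.

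Among 14077 other genes, 5 had the profile most like the mean profile of the 9 over 22 samples, by Pearson r on the log2 scale: Gyk (r 0.881, Spearman rho 0.870), 2610002J02Rik (0.879, 0.849), Abcg5 (0.873, 0.854), Rara (0.871, 0.779) and Dynlt1a (0.871, 0.857). Gyk encodes glycerol kinase, Abcg5 a sterol transporter and Rara a retinoic acid receptor. Their levels were modest, with medians of 31.8 FPKM for Gyk and 36.5 FPKM for Abcg5. Over the specimens 2610002J02Rik ran only from 16.7 to 25.4 FPKM and Rara from 7.08 to 14.6 FPKM. Gyk ran from 6.54 to 77.8 FPKM, Dynlt1a from 6.98 to 47.3 FPKM and Abcg5 from 0.594 to 146 FPKM. Defa24 ran from 5.24 to 30719 FPKM, so the likeness is one of profile shape and not of the size of the differences. These samples share organs and animals, and the likeness is a description of this set of specimens.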

How the data were processed

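Polyadenylated RNA from 23 specimens was sequenced in 68 columns (2 lanes per library, 2 runs), with RNAlater storage, RNeasy extraction and TruSeq libraries per the labels' protocols. The authors deposited FPKM values of 23356 rows. FastQC, TopHat2 2.0.13, Cuffnorm and mm10 are named in the submitters' processing notes. No counts were used, so depth in fragments is unknown and counting intervals cannot be given. The relative depth of columns was 0.715 to 1.32.

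Columns were averaged per specimen, and log2(FPKM + 1) was computed. limma 3.58.1 in R 4.3.3 fitted all 12 groups together over 22 samples (lmFit, eBayes with trend). Genes reached 1 FPKM in at least 2 specimens (14098 genes), and p-values were adjusted by Benjamini-Hochberg over all of them, with a threshold of 0.05. Apc wildtype KO and ApcMin het duodenal tumours were compared on run 1 columns (13941 genes). The fit was tested on simulated data. An exact permutation test of 2 against 2 cannot go below p = 0.333.

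The 9 genes and the lists of Paneth cell genes, regulators and markers were chosen with earlier results of these data known. The text names the 9 genes, listed genes that passed or otherwise up to 4 with the smallest p, and 5 genes of most like pattern; other values of listed genes named in the text were chosen after they were seen. Replicate numbers mark the same animal between normal duodenum and colon (correlation of deviations 0.0332 in KO and 0.0103 in WT) and are only shared numbers elsewhere. Between ApcMin KO and WT tumours, which share no animal number, it was higher, at 0.350 in colon and 0.200 in ileum tumours. In the other pairs it was -0.0679 to 0.108. The cause was not tested. The series' design text gives 23 mice and 3 normal specimens per group, and reverses whole tissue and epithelium between colon and duodenum. The sample labels were followed. Of the gene names, 25 looked like dates and were left as they were.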

Additional observations from a re-analysis of the deposited data

Results flagged for a closer look

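For 3 genes the difference between KO and WT had opposite signs in normal duodenum of Apc wildtype mice and in ileum tumours of ApcMin mice, with no overlap of the groups in either. Defa24 differed by -0.94 (log2) in duodenum and by 0.53 in ileum tumours. Defa17 differed by -1.04 in duodenum and by 0.90 in ileum tumours. Defa3 differed by -0.23 in duodenum and by 3.62 in ileum tumours. In duodenum 25.0% of all genes tested were lower in KO without overlap, and in ileum tumours 19.6% were higher. The share of all genes with both is not given here. Overlap in duodenum was judged with both WT specimens, which were counted as 1 sample in every test. Defa3 was at 46.3 and 41.5 FPKM in KO duodenum, against 51.0 and 52.3 FPKM in WT duodenum. The difference between the effects in duodenum and in ileum tumours was not tested. The comparisons also differ in organ, Apc genotype and tumour state, and each ileum tumour genotype carried 1 animal number.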

How the results depend on the processing

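Values are log2 differences of the first-named group minus the second, or numbers of the 11 Paneth list genes past the threshold. With a pseudocount of 0.1 the median of the 9 alpha-defensins was 5.63 in KO against WT ileum tumours, 2.81 in KO against WT colon tumours, 8.38 in duodenum against colon and 4.28 in ileum against colon tumours, and Defa17 in KO against WT colon tumours was 0.052, against -0.01 with a pseudocount of 1. In KO against het duodenal tumours the Paneth list count of 1 was 0 with a pseudocount of 0.1, without a filter, with quantile normalisation or with the compared groups alone, and 2 with WT duodenum as 2 specimens. In ileum tumours the count of 0 was 2 with the compared groups alone. In KO against WT colon, run 2 alone gave 0.29 for Defa5, 0.29 for Defa20 and 0.011 for Gm21002. Without the run 1 library of WT colon 2 the median was 0.076, with 0.19 for Defa5, 0.16 for Defa20, 0.11 for Defa21, 0.21 for Defa22, 0.076 for Defa26 and 0.0069 for Gm21002.

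Leaving out 1 specimen at a time gave medians of -0.16 to 0.34 in KO against WT duodenum, with Defa5 at -0.52 to 0.34 and Defa21 at -0.14 to 1.17. In KO duodenal tumours against KO duodenum the median was -2.73 to -1.63 and the Paneth list count 0 to 1. In KO against het duodenal tumours the count was 0 to 4 and Defa20 was -6.00 to 0.068. In ileum tumours Defa5 was -0.91 to 0.0047. In colon tumours the median was 0.42 to 2.25, Defa5 -3.06 to 1.45, Defa17 -1.77 to 1.74, Defa24 -2.18 to 1.74, Defa26 -1.30 to 2.25 and the count 0 to 4. In KO against WT colon the median was -4.19 to 0.10, Defa5 -4.71 to 0.34, Defa20 -4.02 to 0.27, Defa21 -4.19 to 0.10, Defa22 -4.43 to 0.42, Defa26 -2.95 to 0.076 and Gm21002 -5.27 to 0.16. A lone sample left in a group is assumed to vary like the other groups.

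With a replicate block, fitted with WT duodenum as 2 specimens, the Paneth list count in KO against het duodenal tumours was 2, as it was with WT duodenum as 2 specimens and no block, and every other such count and median stayed within the limits used here. Over the alternatives, 92 medians of the 9 genes kept their value within the replicate spread, 6 moved and 3 reversed. Of single-gene values of the 9, 850 stayed, 31 moved and 28 reversed. The cause of these changes was not tested. Depth in fragments is unknown, reads of near-identical copies cannot be told apart, and 2 specimens per group, often of 1 animal number, limit every comparison.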
